A study of Rattus norvegicus with 6 samples.

Results

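The TGF-beta and activin ligands and receptors described here were 10 genes measured in the dorsal root ganglia (DRG) of rats after nerve injury. The ligands were Tgfb1, Tgfb2, Tgfb3, Inhba and Gdf15, the receptors were Tgfbr1, Tgfbr2, Tgfbr3 and Acvr1c, and Fst encodes a secreted antagonist. The genes were found by their symbols in a table of 43350 rows. A symbol with several rows was read from its protein-coding row, and among such rows from the one with most counts, and all 10 genes were found. The animals were male Sprague-Dawley rats. In the CCI group, chronic constriction injury was made by tying ligatures loosely around the sciatic nerve, and in the sham group the nerve was exposed without ligatures. The ipsilateral lumbar 4 to 6 DRG were taken on day 11 after surgery, and ribosomal-RNA-depleted RNA was sequenced from 3 CCI and 3 sham samples. The study describes 1 rat per sample, whereas the labels mention a pooled sample. The 3 ganglia were not kept apart and hold sensory neurons with injured and uninjured axons together with glia and other cells.

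TGF-beta ligands are secreted in a latent form, bound to a propeptide and a latent TGF-beta binding protein, and must be released before they act. A released ligand brings together type II and type I serine/threonine kinase receptors, and the type I receptor then phosphorylates receptor Smads, which enter the nucleus with Smad4. Activins signal through the same kind of receptor pair and share Smad2 and Smad3 with TGF-beta, whereas BMPs act through Smad1, Smad5 and Smad9. In peripheral nerve, TGF-beta is known for roles in Schwann cell responses, matrix deposition and macrophage behaviour, and activin for effects on sensory neurons and pain after tissue injury.

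Library totals lay between 75423546 and 87615743 counts, and the 26663 rows whose mean FPKM reached 0.5 entered the test. FPKM is the number of fragments per kilobase of transcript relative to library size, and CPM is the library-size-scaled count without division by length. A gene counted as called when edgeR's quasi-likelihood test put its unadjusted p below 0.05 and its log2 fold change reached 0.58 in either direction. Benjamini-Hochberg adjusted p-values are given beside these calls. All 5 markers of injured neurons (Atf3, Gal, Sprr1a, Npy and Vip) were called higher in CCI, with a summed level of 118 to 257 FPKM in CCI libraries and 5.24 to 6.29 FPKM in sham libraries. Among 10 macrophage markers, 6 were called higher, and their sum was 53.6 to 82.4 FPKM in CCI and 34.2 to 44.3 FPKM in sham. The 8 sensory neuron markers and the 6 satellite glia markers held no called gene, with sums of 3750 to 3860 and 1010 to 1110 FPKM in CCI and of 3370 to 3900 and 1010 to 1080 FPKM in sham, so that the defining genes of DRG were present in every library. These sums hide single markers whose groups did not overlap, as was so for 17.3% of all tested rows. Of the neuron list these were Nefh (log2 fold change -0.55), Isl1 (-0.13), Tubb3 (0.31) and Prph (0.25). Of the satellite glia list they were Fabp7 (-0.55) and Cdh19 (0.37), in opposite directions. Schwann cell markers (1 of 7 called, lower) summed to 2540 to 3590 FPKM in CCI and to 3230 to 3640 FPKM in sham. Of the T cell markers only Cd4, which macrophages of the rat also carry, was high enough to test and was called higher. Cd3d, Cd3e and Cd3g were each at most 0.261 FPKM in any library. Cd8a, also too low to test, had 1, 4 and 19 counts in CCI and 0 in each sham library. In a fit of all rows with any count Cd8a was called higher (edgeR's quasi-likelihood test, adjusted p = 0.494), as were 2.54% of those rows. Skeletal muscle markers stood at 125 FPKM in sham replicate 1, and 4 of the 6 tested were called lower.

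None of the 10 genes was called in either direction. Of the 10, 8 passed the filter and were tested, whereas Acvr1c (mean 0.0762 FPKM) and Gdf15 (mean 0.141 FPKM) did not. Among the 8, 0 were called higher, against 2.57% of all tested rows, 0 were called lower, against 1.26%, and 0 had an adjusted p under 0.05, against 0.0938%. DESeq2, edgeR's exact test and limma on log2(FPKM + 0.1) likewise called 0 of the 8 at each of these limits. With the fold limit dropped, the quasi-likelihood test put 1 of the 8, Tgfbr1, below 0.05 unadjusted, where 10.7% of all tested rows passed. The difference CCI minus sham was positive for 6 and negative for 2 of the 8, and its median was 0.06 on the log2 scale, beside 0.01 over all tested rows. The CCI and sham libraries did not overlap for Tgfbr1 alone among the 8, where 17.3% of all tested rows did not overlap. Because RNA was taken from whole ganglia, fewer cells of a type and less RNA per cell cannot be told apart for any of these values. An exact permutation test of 3 against 3 samples could not give a p below 0.1.

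**Figure D1:**
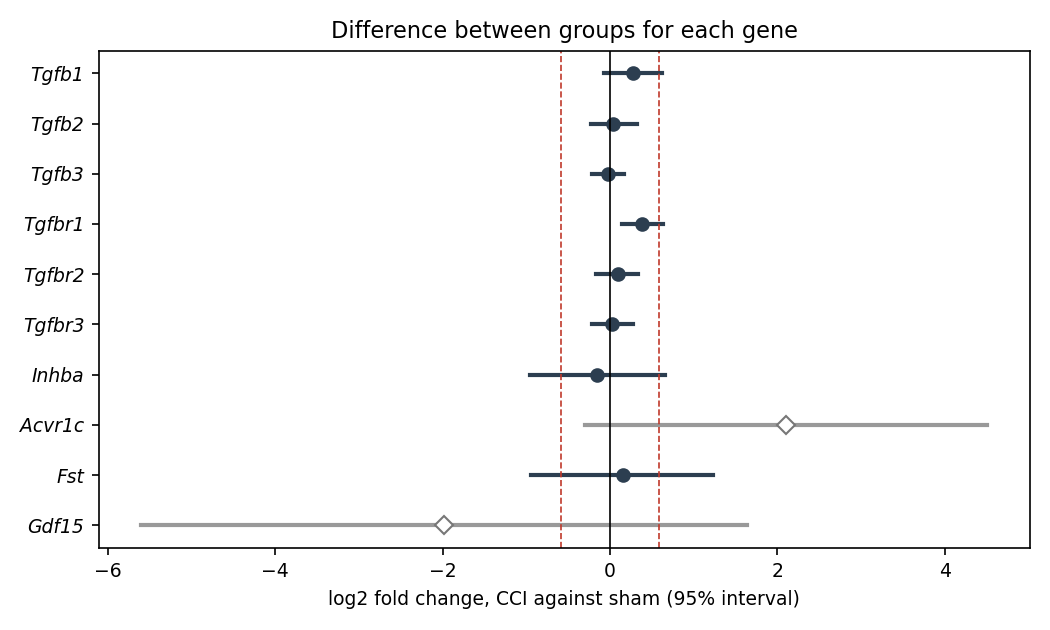
Difference between CCI and sham in log2 fold change (CCI minus sham, horizontal axis) for the 10 genes, with filled points for the 8 tested genes, open diamonds for Acvr1c and Gdf15 in the fit without a filter, bars for 95% intervals of edgeR's quasi-likelihood fit and dashed lines at the fold limit of 0.58 in each direction. Among the tested genes the interval of Tgfbr1, 0.14 to 0.63, is the only one of the 8 that leaves out 0, and those of Inhba and Fst are the widest, while both open diamonds have wider bars that cross 0.

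The 3 TGF-beta isoforms were all present in the ganglia, and none was called. Tgfb1, which encodes the isoform best known from immune cells and platelets, lies on chromosome 1 (82480195 to 82497199, plus strand, in the rat genome the authors call V101, as are all gene positions below). Its level was 3.18, 4.37 and 3.76 FPKM in the CCI libraries and 3.34, 2.94 and 2.97 FPKM in the sham libraries. CCI replicate 1 lay below sham replicate 1, so the groups overlapped, while the other two CCI libraries were above all sham libraries. The mean was 3.77 ± 0.592 FPKM in CCI and 3.08 ± 0.223 FPKM in sham (SD, n = 3 each), a 1.21-fold difference with a 95% interval of 0.950 to 1.54 (edgeR's quasi-likelihood test, adjusted p = 0.584). The log2 fold change was 0.28 with all libraries, 0.16 without CCI replicate 2, and 0.38 without CCI replicate 1, when it was under the unadjusted p limit in the same test though not at the fold limit.

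Tgfb2 (chromosome 13, 105039853 to 105141030, minus strand), the isoform that binds its type II receptor poorly without betaglycan, was measured at 4.46, 4.25 and 4.99 FPKM in CCI and at 5.08, 4.11 and 3.97 FPKM in sham. The highest value of all 6 belonged to a sham library, and the groups overlapped. The fold was 1.03 with a 95% interval of 0.850 to 1.25 (edgeR's quasi-likelihood test, adjusted p = 0.940). Tgfb3 (chromosome 6, 109913757 to 109935533, minus strand) had the highest level of the 3 isoforms, with 7.85, 8.23 and 7.82 FPKM in CCI and 7.50, 7.91 and 8.55 FPKM in sham. All CCI values lay inside the sham range. Its fold of 0.986 had a 95% interval of 0.865 to 1.12, the narrowest of the 8 genes (edgeR's quasi-likelihood test, adjusted p = 0.958).

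The make-up of the isoforms was compared as the share of each in their summed FPKM, as a description without a test. Tgfb3 made up 48.9 ± 1.76% of the sum in CCI and 51.7 ± 4.15% in sham, and Tgfb2 made up 28.1 ± 2.52% and 28.3 ± 3.22% (SD, n = 3 each). The share of Tgfb1 was 20.5, 25.9 and 22.7% in the CCI libraries and 21.0, 19.7 and 19.2% in the sham libraries, so CCI replicate 1 lay within the sham range. In every library Tgfb3 had the largest share.

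**Figure D2:**
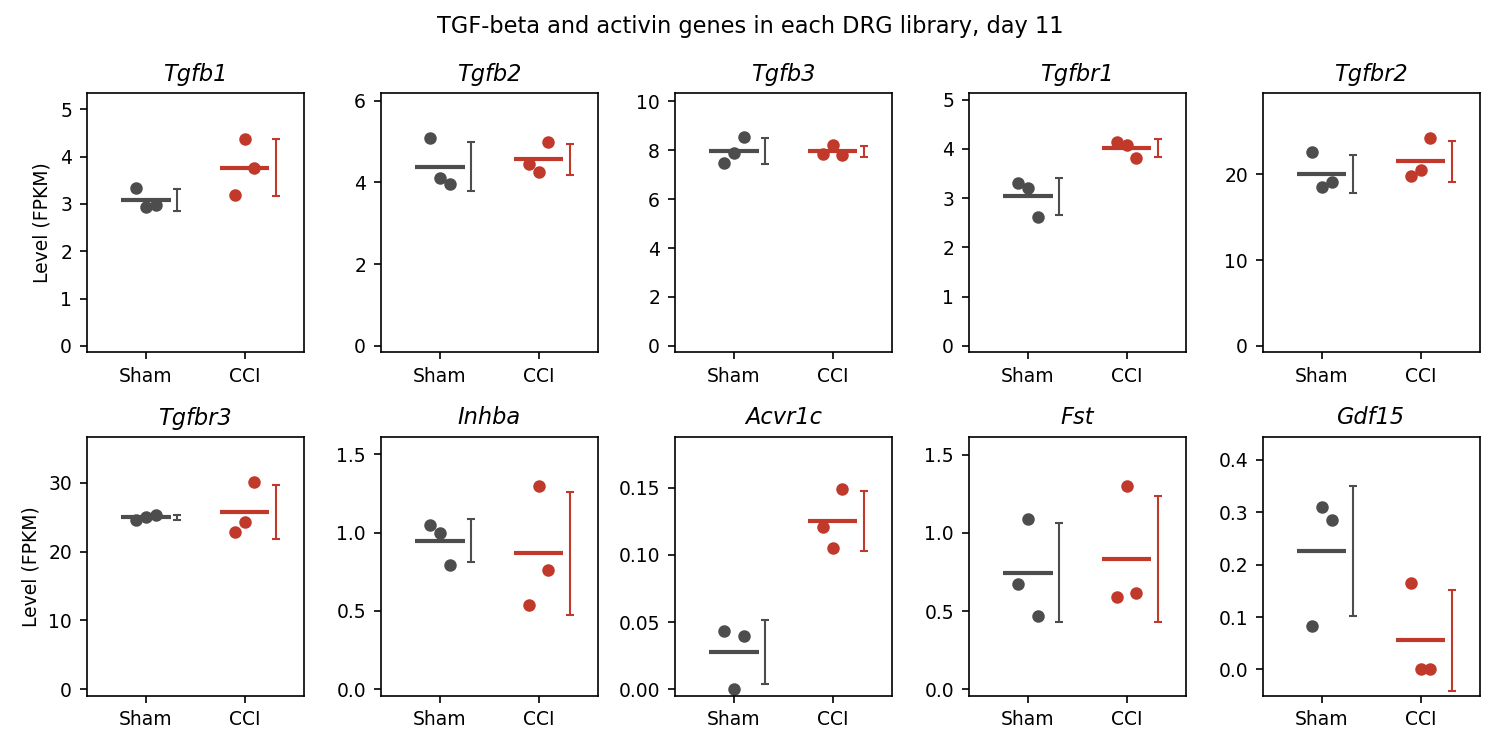
Level in FPKM (vertical axes, each with its own scale) of the 10 genes in the 3 CCI libraries (red) and 3 sham libraries (grey), with points for libraries, horizontal lines for group means and bars for the SD. Only Tgfbr1 and Acvr1c show CCI points that all lie above the sham points.

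Tgfbr1 was the tested receptor of the set whose groups did not overlap, although it was not called. It encodes ALK5, the type I receptor through which TGF-beta activates Smad2 and Smad3, and lies on chromosome 5 (63050758 to 63123466, plus strand). Its level was 4.15, 4.08 and 3.81 FPKM in CCI and 3.30, 3.21 and 2.61 FPKM in sham. Every CCI library was above every sham library. The mean was 4.01 ± 0.182 FPKM in CCI and 3.04 ± 0.377 FPKM in sham (SD, n = 3 each), and the fold was 1.30 with a 95% interval of 1.10 to 1.55. The log2 fold change of 0.38 (SE 0.10) was under the limit of 0.58, and edgeR's quasi-likelihood test gave an adjusted p of 0.267, which ranged from 0.0640 to 0.620 over the alternatives tried. Ranked by p, Tgfbr1 stood at 814 of the 26663 tested rows. The mean of the summed macrophage markers was 1.79 times as high in CCI as in sham over the same libraries, and their part in the level of Tgfbr1 was not tested.

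Acvr1c, the other type I receptor of the set, encodes ALK7, a receptor for nodal, activin B and related GDF ligands known from fat and nervous tissue. The gene lies on chromosome 3 (44270653 to 44342355, minus strand). It had 43, 37 and 49 counts in the CCI libraries and 17, 0 and 15 counts in the sham libraries, or 0.529, 0.458 and 0.643 CPM against 0.193, 0 and 0.181 CPM. All CCI libraries were above all sham libraries, and the groups did not overlap, in either direction, for 14.9% of the 35757 rows with any count. In each library 3 counts, the upper limit that a count of 0 allows, corresponded to between 0.0341 and 0.0394 CPM. With no filter on low values, the fold was 4.29 and the log2 fold change 2.10 (SE 1.02), with a 95% interval of -0.30 to 4.51 that holds 0 (edgeR's quasi-likelihood test, adjusted p = 0.620). In that fit 2.54% of rows were called higher and 1.30% lower, and Acvr1c was not among them. It passed the unadjusted limits in 4 of the other settings without a filter, namely limma on log2(FPKM + 0.1) with a difference of 0.83 on that scale, DESeq2 with a log2 fold change of 2.11, edgeR's exact test with 2.10, and the quasi-likelihood test without sham replicate 2, the library with 0 counts, with 1.53. Its adjusted p ranged from 0.352 to 0.861 over the alternatives without a filter.

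The promoters of both type I receptors are shown because these were the only genes of the 10 whose groups did not overlap, and both windows were richer in G and C than most. The sequences run from 250 bases before to 50 bases after the start of the gene, 5′ to 3′ on the gene's strand, and come from RefSeq with the build GRCr8, which is not the build of the count table. The Tgfbr1 window is chr5:66449148-66449447 on the plus strand, and the Acvr1c window is chr3:63301105-63301404 on the minus strand. Capitals mark matches to the GC box, the GGGCGG letters recognised by Sp1-type factors, on either strand.
Tgfbr1: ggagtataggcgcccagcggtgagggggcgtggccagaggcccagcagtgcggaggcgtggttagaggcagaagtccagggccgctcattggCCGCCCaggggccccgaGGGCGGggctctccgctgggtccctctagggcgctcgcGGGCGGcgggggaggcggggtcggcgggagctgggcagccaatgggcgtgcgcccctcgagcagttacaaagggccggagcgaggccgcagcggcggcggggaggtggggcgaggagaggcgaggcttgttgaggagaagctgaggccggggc
Acvr1c: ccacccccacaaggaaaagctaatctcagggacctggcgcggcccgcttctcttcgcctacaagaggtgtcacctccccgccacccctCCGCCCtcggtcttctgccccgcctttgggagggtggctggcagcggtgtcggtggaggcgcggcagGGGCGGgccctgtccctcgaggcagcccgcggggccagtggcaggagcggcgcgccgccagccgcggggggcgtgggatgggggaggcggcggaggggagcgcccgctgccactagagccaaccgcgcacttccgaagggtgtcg
The Tgfbr1 window held 3 GC boxes, at -158, -141 and -103 from the start, and the Acvr1c window held 2, at -162 and -95. The GC box was present in 33.1% of the 33469 rat promoter windows searched. The Tgfbr1 window was 74.7% G and C with 30 CpG dinucleotides and the Acvr1c window 73.7% with 31, beside medians of 51.7% and 7 over all windows. Neither window held the other motifs searched on both strands, which were the AP-1 site TGANTCA (in 7.33% of all windows), the cAMP response element TGACGTCA (1.83%), the CAGACA box bound by Smads (21.1%), the Smad palindrome GTCTAGAC (0.197%) and the TATAAA box (14.2%). These are matches of letters in a fixed window, and no binding was measured. Windows were found for 9 of the 10 genes, with none for Fst. In the members not shown, whose groups overlapped, G and C ranged from 45.7% with 3 CpG (Inhba) to 69.7% with 26 (Tgfbr3). GC boxes also stood in the windows of Tgfbr2 (1) and Tgfbr3 (1) and in 1 window of Gdf15 (5). The windows of Tgfb1, Tgfb2, Tgfb3 and Inhba and the other window of Gdf15 held none. A link between these letters and the difference between groups was not tested.

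Tgfbr2 and Tgfbr3 had the highest levels of the 10 genes, and neither was called. Tgfbr2, the type II receptor that binds TGF-beta first (chromosome 8, 124312754 to 124399494, minus strand), was at 19.8, 20.5 and 24.2 FPKM in CCI and at 22.6, 18.5 and 19.1 FPKM in sham. The groups overlapped, and each held 1 library above 22 FPKM. The fold was 1.06 with a 95% interval of 0.890 to 1.27 (edgeR's quasi-likelihood test, adjusted p = 0.849). Tgfbr3, which encodes the co-receptor betaglycan (chromosome 14, 3506339 to 3682545, plus strand), was at 22.8, 24.3 and 30.1 FPKM in CCI and at 24.6, 25.0 and 25.3 FPKM in sham. The sham libraries lay close together, and the CCI libraries held both the lowest and the highest value. Its fold was 1.02 with a 95% interval of 0.858 to 1.21 (edgeR's quasi-likelihood test, adjusted p = 0.959). The ratio of Tgfbr2 to Tgfbr1 FPKM was 4.78 to 6.37 in CCI and 5.76 to 7.31 in sham, and these ranges overlapped.

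**Figure D3:**
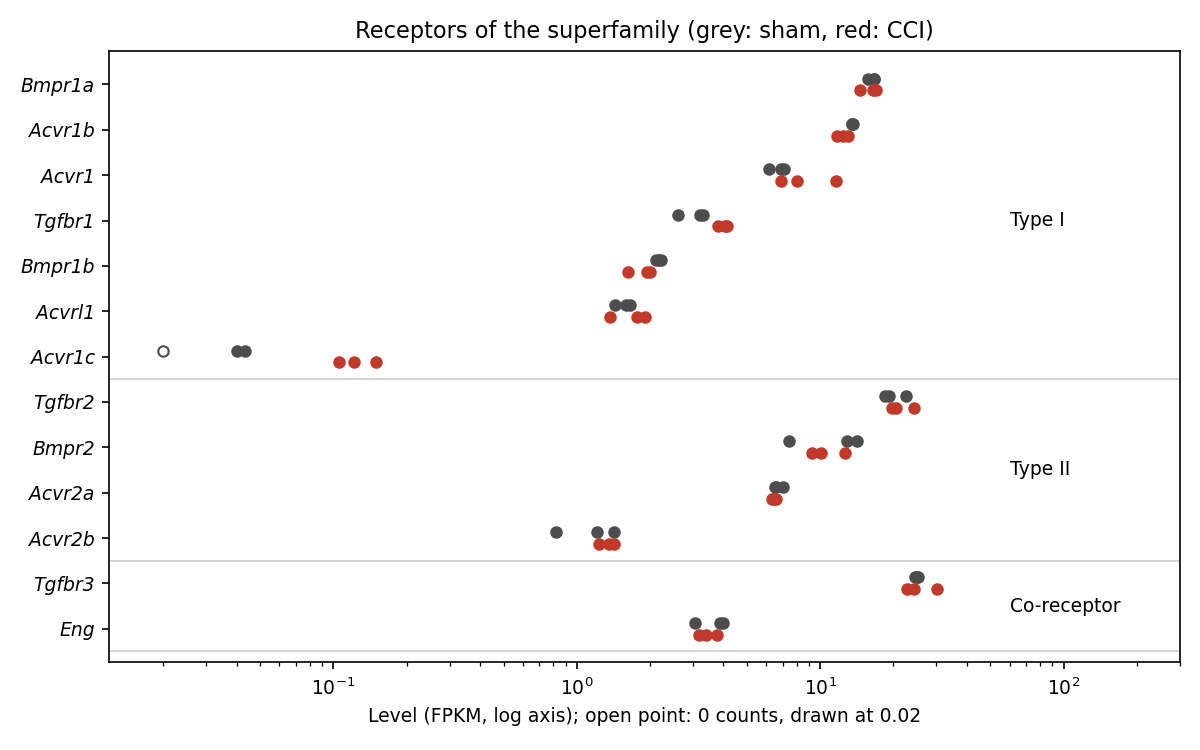
Levels of the TGF-beta receptors and of related type I receptors, type II receptors and co-receptors in FPKM (horizontal log axis) in the 3 CCI libraries (red) and 3 sham libraries (grey), with a point for each library and an open point for the library with 0 counts, drawn at 0.02. The CCI points of Tgfbr1, at 3.81 to 4.15 FPKM, and of Acvr1c lie wholly above the sham points, those of Acvr1b and Bmpr1b lie below them, and those of Tgfbr2 and Tgfbr3 overlap with sham.

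In the activin branch, Inhba and its antagonist Fst were both low and varied widely between libraries. Inhba encodes the beta A subunit that forms activin A as a dimer, and lies on chromosome 17 (51898217 to 51912496, minus strand). It was at 0.538, 1.30 and 0.762 FPKM in CCI and at 1.05, 1.0 and 0.793 FPKM in sham, from 123 to 293 counts a library. The CCI libraries held both the lowest and the highest value. The log2 fold change was -0.15 (SE 0.34) with a 95% interval of -0.95 to 0.66 (edgeR's quasi-likelihood test, adjusted p = 0.928), so that folds between 0.517 and 1.58 lay within the error. Fst encodes follistatin, which binds activins and keeps them from their receptors, and lies on chromosome 2 (46538700 to 46544457, minus strand). It was at 0.587, 1.30 and 0.618 FPKM in CCI and at 0.674, 1.09 and 0.470 FPKM in sham, from 48 to 126 counts a library. Replicate 2 was the highest library of both groups. The log2 fold change was 0.15 (SE 0.45), with a 95% interval of -0.94 to 1.23 (edgeR's quasi-likelihood test, adjusted p = 0.949). The ratio of Fst to Inhba FPKM was 0.811 to 1.09 in CCI and 0.593 to 1.09 in sham.

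Gdf15, a distant member of the family that is induced by cell stress and acts through the receptor Gfral, was at the edge of detection. It lies on chromosome 16 (20555395 to 20557978, plus strand) and had 14, 0 and 0 counts in CCI and 8, 25 and 24 counts in sham. CCI replicates 2 and 3 had none, CCI replicate 1 lay between the sham libraries, and the groups overlapped. With no filter, the log2 fold change was -1.98 (SE 1.53) with a 95% interval of -5.60 to 1.64 (edgeR's quasi-likelihood test, adjusted p = 0.733). Without CCI replicate 1, both remaining CCI libraries were at 0. The sham mean of 0.232 CPM was 6.06 times their mean floor of 3 counts, 0.0383 CPM. That value leaves out the spread of the sham libraries, of which replicate 1 was at 0.0910 CPM, and is not a lower bound. With that CCI library left out, Gdf15 passed the unadjusted limits in edgeR's quasi-likelihood test, with an adjusted p of 0.419. Gfral itself was at most 0.113 FPKM in any library and was not tested.

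Set in order of their mean FPKM over the 6 libraries, the 10 genes spanned from Tgfbr3 (25.3) and Tgfbr2 (20.8) through Tgfb3 (7.98), Tgfb2 (4.48), Tgfbr1 (3.53) and Tgfb1 (3.43) to Inhba (0.908), Fst (0.790), Gdf15 (0.141) and Acvr1c (0.0762). Tgfbr3 stood at the 92.6 percentile of protein-coding rows, Tgfb3 at 76.3, Tgfbr1 at 58.4 and Inhba at 41.0. The library ranges of Tgfbr3 and Tgfbr2 met, as did those of Tgfb2 and Tgfbr1, Tgfbr1 and Tgfb1, Inhba and Fst, and Gdf15 and Acvr1c. Gaps between neighbours that exceeded the spread over libraries stood between Tgfbr2 and Tgfb3 (2.61 times), Tgfb3 and Tgfb2 (1.78 times), Tgfb1 and Inhba (3.77 times) and Fst and Gdf15 (5.61 times).

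The 2 most abundant receptors each had further rows under their symbols. There were 8 such rows, 4 for Tgfbr2 and 4 for Tgfbr3, all inside the bounds of the gene, and 7 of them were on the opposite strand. None was called, and their log2 fold changes lay between -0.37 and 0.27. The opposite-strand rows MSTRG.28075, MSTRG.28074 and MSTRG.28072 inside Tgfbr2 had mean levels of 50.4, 35.5 and 28.1 CPM in CCI and 49.3, 32.8 and 27.3 CPM in sham. The gene itself had 65.3 ± 6.95 CPM in CCI and 61.6 ± 6.34 CPM in sham (SD, n = 3 each). Inside Tgfbr3 (170 CPM in CCI, 166 CPM in sham), the largest opposite-strand row was at 40.3 and 38.0 CPM. The libraries marked strand, but whether counting used it is not given in the sources used here, so reads of these overlapping rows cannot be told apart with certainty. A same-strand row inside Tgfbr3 varied most, with 1901, 1548 and 1151 counts in CCI and 616, 1659 and 1658 counts in sham.

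Around these genes, 88 further genes of the pathway were listed by role and all were found. Of the 88, 70 were tested, 1 was called higher and 2 lower, and 67 were not called. The share called higher was 1.43% of the 70, beside 2.57% of all tested rows, and the share called lower 2.86%, beside 1.26%. The lists leave out 2 genes not reported here, so these shares cover the reported genes only, and no conclusion is drawn from them. By edgeR's quasi-likelihood test 0 reached an adjusted p of 0.05, beside 0.0938% of all tested rows. Below 0.05 unadjusted were 14 of the 70 (20.0%), 8 positive and 6 negative, beside 10.7% of all tested rows. DESeq2 passed 5 of the 70 at an adjusted p under 0.05 (Inhbb, Ltbp1, Ltbp2, Smad1 and Tagln), where it passed 3.07% of all rows with an adjusted p. With edgeR's exact test 2 of the 70 passed (Inhbb and Ltbp2), beside 0.866% of all rows, and with limma 0. The median log2 fold change of the 70 was 0.

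Among 10 other activin, nodal and GDF ligands, 5 were tested, 1 was called higher and 1 lower. Inhbb, the beta B subunit of activin B (chromosome 13, 35436532 to 35442222), fell in CCI, from 2.71, 2.72 and 3.44 FPKM in sham to 1.5, 1.64 and 1.70 FPKM. The groups were well apart, with 1.61 ± 0.104 FPKM in CCI and 2.96 ± 0.416 FPKM in sham (SD, n = 3 each). The fold was 0.539 with a 95% interval of 0.426 to 0.681 (edgeR's quasi-likelihood test, adjusted p = 0.109), and the call was made under all 15 alternatives, with adjusted p from 1.30e-05 to 0.269. Whether Inhba and Inhbb differed in their response was not tested. Mstn, or myostatin, which restrains muscle growth, rose at the unadjusted limits, with 2.72, 2.08 and 1.96 FPKM in CCI and 1.64, 1.62 and 0.928 FPKM in sham (log2 fold change 0.67, SE 0.26, adjusted p = 0.424 in edgeR's quasi-likelihood test). That call was lost without CCI replicate 1 (0.51), CCI replicate 2 (0.73) or sham replicate 3 (0.46), and with limma on log2(FPKM + 1), where the difference was 0.45 on that scale. The skeletal muscle markers summed to 4.26 to 8.40 FPKM in CCI and to 5.20 to 125 FPKM in sham, and their part in the level of Mstn was not tested. Gdf1 had the highest level of the group at 8.67 FPKM, in a row that joins it with Cers1. Among 11 BMP ligands 4 were tested and none was called, and Bmp6 had the highest level, 3.64 FPKM.

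None of the 9 tested receptors among 13 others was called. Bmpr1a, a type I receptor for BMPs, had the highest level at 16.2 FPKM. Among the activin receptors, Acvr1b, the type I receptor ALK4, stood at 11.7, 12.4 and 13.0 FPKM in CCI and 13.5, 13.5 and 13.6 FPKM in sham. Acvr2a, a type II receptor, stood at 6.58, 6.36 and 6.44 FPKM in CCI and 6.54, 6.57 and 7.02 FPKM in sham. Acvr1b and Acvr2a, named after their values were seen, were thus well above the level of the ligand subunits Inhba and Inhbb in each library. Other activin receptors were not, since the type II receptor Acvr2b had a mean of 1.24 FPKM and Acvr1c 0.0762 FPKM, beside 2.28 FPKM for Inhbb. The Acvr1b groups did not overlap, with a log2 fold change of -0.14 (SE 0.06), well under the limit for a call (edgeR's quasi-likelihood test, adjusted p = 0.446).

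The 11 extracellular and membrane inhibitors tested held no called gene. Fstl1, a secreted follistatin-like protein, had the highest level of the group at 212 FPKM. Its log2 fold change was -0.27 (edgeR's quasi-likelihood test, adjusted p = 0.363), below 0.05 unadjusted. Every CCI library was below every sham library for Fstl1 and for Bambi and Fstl3, named after their values were seen. Bambi (-0.60) was past the fold limit but not below 0.05 unadjusted, and Fstl3 was at -0.12. The groups of the remaining inhibitors overlapped, and the median of the 11 was -0.01, with 5 positive. Among 11 tested genes of latent binding and activation, 1 was called. Ltbp2, a matrix protein of the latent TGF-beta binding family that itself does not bind latent TGF-beta (chromosome 6, 108500112 to 108596569), fell in CCI to 0.921, 1.28 and 0.843 FPKM from 1.98, 2.39 and 1.84 FPKM in sham. All CCI libraries were below all sham libraries. The fold was 0.485 with a 95% interval of 0.354 to 0.665 (edgeR's quasi-likelihood test, adjusted p = 0.136), and the call was made under all 15 alternatives. Ltbp1, named after its values were seen, was not called. It was at 4.19, 5.66 and 4.14 FPKM in CCI and at 3.57, 2.88 and 3.22 FPKM in sham. Its fold was 1.43 with a 95% interval of 1.12 to 1.82 (edgeR's quasi-likelihood test, adjusted p = 0.289). Of the 11 tested genes, 6 had a positive log2 fold change, and the median was 0.01. Itgb8, the integrin subunit that helps to release latent TGF-beta, had the highest level of that group at 20.8 FPKM and a log2 fold change of 0.23 (edgeR's quasi-likelihood test, adjusted p = 0.295).

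None of the 16 tested Smads and Smad regulators was called. Smurf1, a ubiquitin ligase that acts on Smads and receptors, had the highest level at 11 FPKM. Smad1, Smad9 and Zfyve9, named after their values were seen, were below 0.05 unadjusted and under the fold limit, as was Smurf1. Every CCI library was above every sham library for Smad1 (log2 fold change 0.57, SE 0.15, adjusted p = 0.271 in edgeR's quasi-likelihood test). For Smad9 every CCI library was below every sham library (-0.44, SE 0.14, adjusted p = 0.330 in the same test). The CCI libraries also lay wholly below sham for Zfyve9 (-0.16, SE 0.06) and wholly above sham for Smurf1 (0.18, SE 0.07). Of the 16, 9 log2 fold changes were positive, and the median was 0.01. Of the target genes of the pathway reported here, 14 were tested and none met both limits for a call. Over these 14 the median log2 fold change was -0.04, and 6 were positive. Tgfbi, Acta2 and Tagln, named after their values were seen, were below 0.05 unadjusted and under the fold limit. They had every CCI library above every sham library, as did Klf10, which was not below 0.05. The groups did not overlap, in either direction, for 17.3% of all tested rows. Acta2, smooth muscle actin, was at 12, 11 and 10.4 FPKM in CCI and 8.97, 8.64 and 7.37 FPKM in sham (log2 fold change 0.40, SE 0.10, adjusted p = 0.253 in edgeR's quasi-likelihood test). Tagln, an actin-binding protein of smooth muscle whose row joins it with Sidt2, was at 19.4, 17.0 and 17.5 FPKM in CCI and 14.1, 14.8 and 14.1 FPKM in sham (log2 fold change 0.31, SE 0.07, adjusted p = 0.199 in the same edgeR test). For Tgfbi, a matrix protein, the log2 fold change was 0.26. Col3a1, a fibrillar collagen and the most abundant target, was at 173 FPKM in a row that joins it with another gene, and its log2 fold change was -0.14 (edgeR's quasi-likelihood test, adjusted p = 0.871). The fibroblast markers, which include Col3a1, summed to 389 to 685 FPKM in CCI and to 580 to 614 FPKM in sham.

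**Figure D4:**
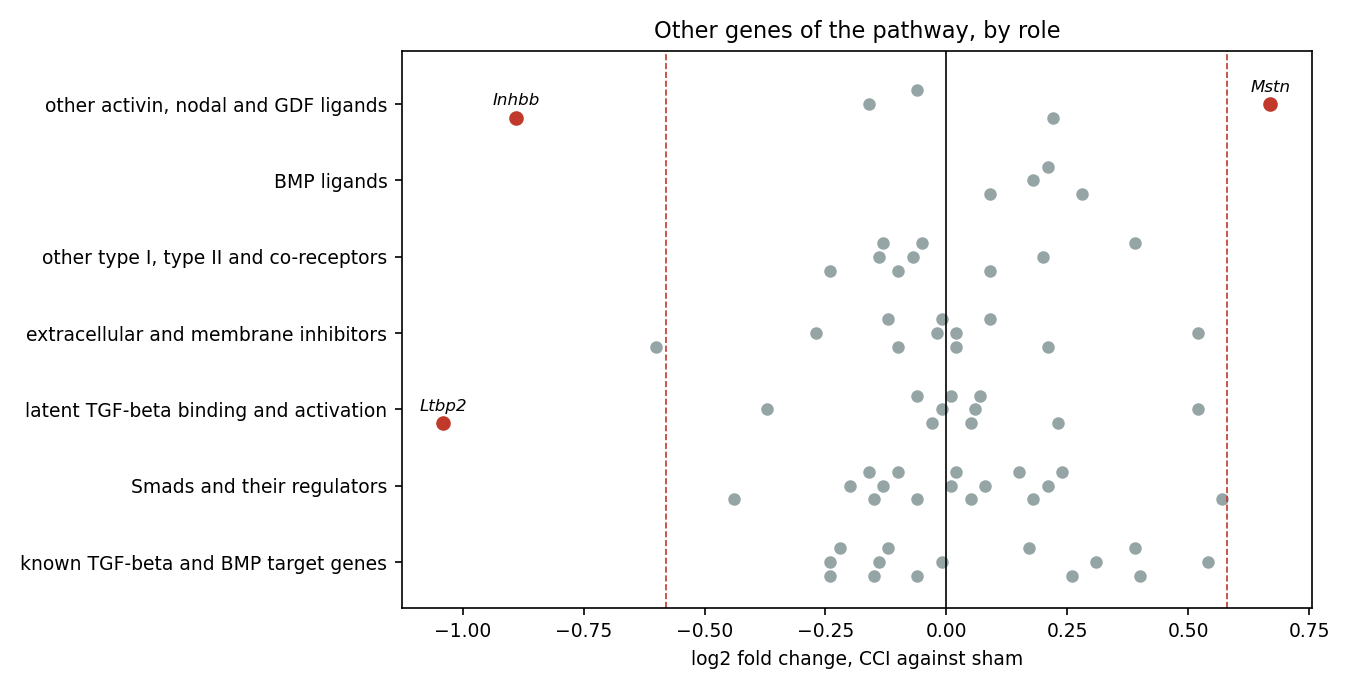
Log2 fold change (CCI minus sham, horizontal axis) of the 70 tested pathway genes grouped by role, with a point for each gene, called genes in red with their names and dashed lines at the fold limit of 0.58 in each direction. The points spread around 0 between -1.04 (Ltbp2) and 0.67 (Mstn), and 1 gene above 0 and 2 below it pass the limits.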

How the data were processed

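RNA of ipsilateral lumbar DRG was measured in 3 CCI and 3 sham libraries. The authors mapped the reads, per the labels with HISAT2 2.0 and StringTie 1.3.0, to the rat genome they call V101. The authors deposited whole-number counts per row, not normalized, and FPKM values made from them. Rows without a symbol numbered 6849, held 5.37% to 5.72% of the counts and stayed in the fit. Rows with 0 counts are listed at an FPKM of 0.0001.

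The counts were tested in R 4.3.3 with edgeR 4.0.16 (quasi-likelihood, TMM factors, trended prior with 2.52 prior degrees of freedom) on 26663 rows whose mean FPKM reached 0.5, with Benjamini-Hochberg adjustment over all of them. The 2 genes under the filter were fitted on the 35757 rows with any count. Alternatives used limma 3.58.1, DESeq2 1.42.0, other filters and scalings, a replicate block and each library left out. The runs without a filter under the other tools, and the count at any fold, were added after the data were seen. Floors of 3 counts cover counting error only, and intervals and p-values measure only the spread between these samples. Levels are compared between genes only as FPKM.

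The 10 genes and all lists were chosen with earlier results of these data known. All 10 are named, with every called gene and the most abundant gene of each pathway list, and other named genes were chosen after their values were seen. The genes most like a called member were to be named, but none was called. Promoter windows came from RefSeq (GRCr8) and share no coordinates with the table. Of the pathway lists, 2 genes are not reported here, so the list counts, calls included, do not cover the full lists. The script was tested on simulated data.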

Additional observations from a re-analysis of the deposited data

How the results depend on the processing

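Under all alternatives run (limma with either pseudocount, DESeq2, edgeR's exact test, other filters and scalings, protein-coding rows alone, the replicate block and each library left out), 0 of the tested TGF-beta and activin genes passed the limits for a call (8 tested, or 6 where the filter was a mean FPKM of 1, which left out Inhba and Fst), and the number at an unadjusted p under 0.05 was 1 except without CCI replicate 1, where it was 2. Of 140 alternative values of single genes, 127 kept direction and side of the limits, 8 reversed, each with a library left out, and 5 crossed the limits (4 of Acvr1c and 1 of Gdf15). With a library left out the log2 fold changes lay between -0.02 and 0.15 for Tgfb2, -0.07 and 0.04 for Tgfb3, 0.00 and 0.17 for Tgfbr2, -0.10 and 0.10 for Tgfbr3, -0.56 and 0.10 for Inhba, -0.32 and 0.53 for Fst, -0.09 and 0.01 for Bmpr1a, and -0.33 and 0.07 for Col3a1. The count of other pathway genes called higher was 1, also with the replicate block, and became 0 with limma on log2(FPKM + 1) and 1 to 4 with a library left out. The count called lower was 2 and became 3 with DESeq2 and without CCI replicate 2. The cause of these shifts was not tested.

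No pairing of samples by replicate number was seen. Same-numbered samples had deviations that correlated between -0.055 and -0.011, and 0 of 6 samples correlated best with their own number. With 3 samples a group, these correlations cannot exclude a pairing. With the replicate block 617 rows were called higher and 318 lower, beside 686 and 336 without it, 0 rather than 25 had an adjusted p under 0.05, and the log2 fold changes of Acvr1c and Gdf15, fitted without a filter, were 2.57 and -3.55. With 3 samples a group and 48 to 293 counts a library, the intervals of Inhba and Fst covered changes past the fold limit in both directions.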
